A study of Mus musculus with 10 samples.

Results

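Glycolytic enzyme isoforms are the products of separate genes that catalyze the same step of glycolysis, and 10 such genes were followed here in the hemibrains of mice. They were Hk1 and Hk2 (hexokinase), Pfkl, Pfkm and Pfkp (phosphofructokinase), Aldoa (aldolase), Eno1 and Eno2 (enolase), and Ldha and Ldhb (lactate dehydrogenase). Members were found through the RefSeq accession of each probe that was not a control. All 10 genes were found, with 19 probes, among 18539 genes named on the array.

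The study fed C57BL/6J male mice a fish oil enriched diet (FD) or a standard diet (SD) and profiled their brains on dual dye arrays. The data hold 10 arrays, each with RNA of the left hemibrain of 1 male C57BL/6J mouse aged 5 months in Cy-5 and another RNA in Cy-3. By their labels all Cy-5 samples were FD and Cy-3 was a pool of SD hemibrains, but a description field marks the same animals as controls, and the methods speak of animals of both diets with a purchased reference for Cy-3. The diets of the arrays are therefore not settled and were not compared, and the 10 hemibrains, numbered 1 to 10 as names alone, form a single group. Dyes were not swapped, so dye and RNA cannot be told apart. If Cy-3 was a pool, a test of the ratio also leaves out the spread of the animals in that pool.

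Glycolysis splits glucose into pyruvate, which is either oxidized in mitochondria or reduced to lactate. Hexokinase traps glucose in the cell, phosphofructokinase commits it to the pathway, aldolase splits the sugar, enolase makes phosphoenolpyruvate, and lactate dehydrogenase interconverts pyruvate and lactate. In the adult brain Hk1 is known as the main hexokinase, Eno2 as the neuronal enolase, Aldoc as the brain aldolase that marks astrocytes and some Purkinje cells, and Ldhb as the subunit of tissues that oxidize lactate. Hk2, Ldha and the widespread Eno1 are known also from proliferating or hypoxic cells.

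The tissue labels were set against marker genes first. Neuronal markers were higher in Cy-5 for 6 of 6 genes, with a list median of log2 Cy-5/Cy-3 between 6.14 and 7.81 over the arrays. The highest was that of hemibrain 8, where Snap25 and Nefm were not well above background in Cy-3, so no exact fold is read from it. The other arrays lay between 6.14 and 6.97. Markers of astrocytes (5 of 5) and oligodendrocytes (5 of 5) were higher as well, with medians over genes of 6.83 and 5.29. Markers of proliferating cells were lower in Cy-5 for 6 of 6 genes, between -6.05 and -5.51. The Cy-5 channel therefore carried the markers of brain, and the Cy-3 channel did not have the marker levels that its label as a hemibrain pool would give. Ratios below describe hemibrain RNA against this Cy-3 RNA, and not against another brain. In whole tissue, fewer cells of a type and less RNA per cell cannot be told apart.

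Among the members, 5 of 10 genes were higher in Cy-5 (Hk1, Pfkm, Aldoa, Eno2 and Ldhb), 4 were lower (Hk2, Pfkl, Eno1 and Ldha) and Pfkp was not called. Each gene was taken by its brightest probe, and a gene was called at an adjusted p under 0.05 in limma with a mean ratio of at least 1.5-fold. Of all probes tested, 30.8% were called higher and 27.9% lower, and of the brightest probes of all named genes, 34.5% and 27.4%. Without loess the balance turned, with 11234 probes higher and 13024 lower. The members' counts are thus set in a background in which, by these calls, most probes differed between the channels. That share depends on the processing. Fewer were called with normexp (7805 higher and 6760 lower), with median signals and no background step (9463 and 7997), or at a fold of at least 2 (9371 and 8293). The median of the members' medians was 0.93, against 0.12 over all named genes. The members' value is only the midpoint between Pfkp at 0.14 and Hk1 at 1.72. It also depends on the probe of Pfkp, whose other probe was at 4.08. Every member's brightest probe was well above background in both dyes on all 10 arrays.

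**Figure D1:**
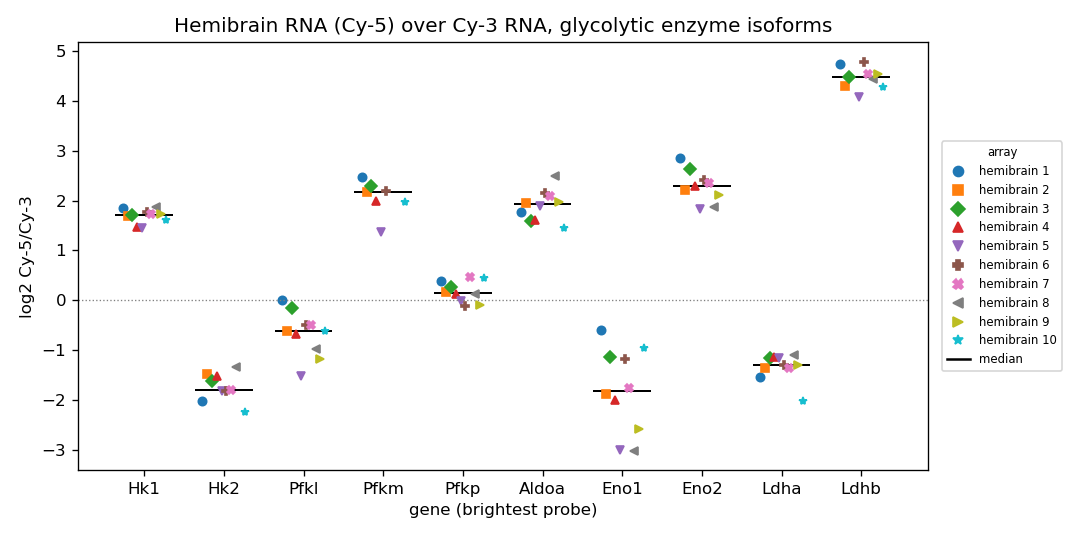
Log2 Cy-5/Cy-3 of the brightest probe of each of the 10 genes, with a symbol for each array and a line at the median. Ldhb lies between 4.07 and 4.78 and Eno1 between -3.01 and -0.59, with the widest spread over arrays of the 10 genes.

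Hexokinase opened the pathway with isoforms on opposite sides of 0. Log2 Cy-5/Cy-3 of Hk1 (probe A_52_P102773) was 1.46 at its lowest, 1.72 at its median and 1.87 at its highest over 10 arrays, a ratio of 3.30-fold at the median (limma, adjusted p = 5.37e-11). All 10 arrays lay within 0.42 of each other. Hk2 (A_51_P204080), the insulin-regulated hexokinase of muscle, ranged from -2.24 to -1.34 over 9 arrays with a median of -1.80 (limma, adjusted p = 1.05e-08). Hemibrain 9 had no value for Hk2 because its spot carried an outlier flag. The difference between Hk1 and Hk2 on the same array had a mean of 3.43 ± 0.31 (SD, n = 9), or 10.8-fold, and was above 0 on 9 of 9 arrays (exact sign-flip permutation test, two-sided p = 0.00391, the smallest that 9 arrays can give). Averaged over all probes it was 2.59, with a probe of Hk1 at background in Cy-5 among them, and 2.96 without that probe. Here and below, folds between isoforms compare their ratios to the Cy-3 RNA and do not give the proportion of isoforms in brain.

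The processed signals behind these ratios were far from background. The Cy-5 signal of Hk1 was 84800 at its lowest and 182000 at its highest, and its Cy-3 signal 23800 and 55300. For Hk2 the Cy-5 signal ran from 2220 to 3790 and the Cy-3 signal from 6430 to 14900. Signals of different probes are not compared, since each probe binds its target with its own strength.

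Hk1 was measured by 6 probes, and they did not all give the same ratio. The brightest probe is assigned to transcript NM_001146100 and the other 5 to NM_010438. Another 3 probes of NM_010438 (A_51_P249024, A_52_P479599 and A_52_P674530) had medians of 1.81, 2.02 and 1.92, close to that of the brightest probe, but they spanned 1.61, 1.76 and 1.69 over the arrays against 0.42. They moved together, with Pearson's r of 0.97 to 0.99 over 10 arrays, and each had an r of 0.36 to 0.45 with the brightest probe. Probe A_52_P9337 lay on the other side of 0, between -1.97 and -0.59, and its Cy-5 spot was well above background on 8 of the arrays. Probe A_52_P87141 passed background by this flag on 0 arrays in Cy-5 and 3 arrays in Cy-3, so no fold is given for it. Whether the probes differ by transcript variant or by binding was not tested.

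**Figure D2:**
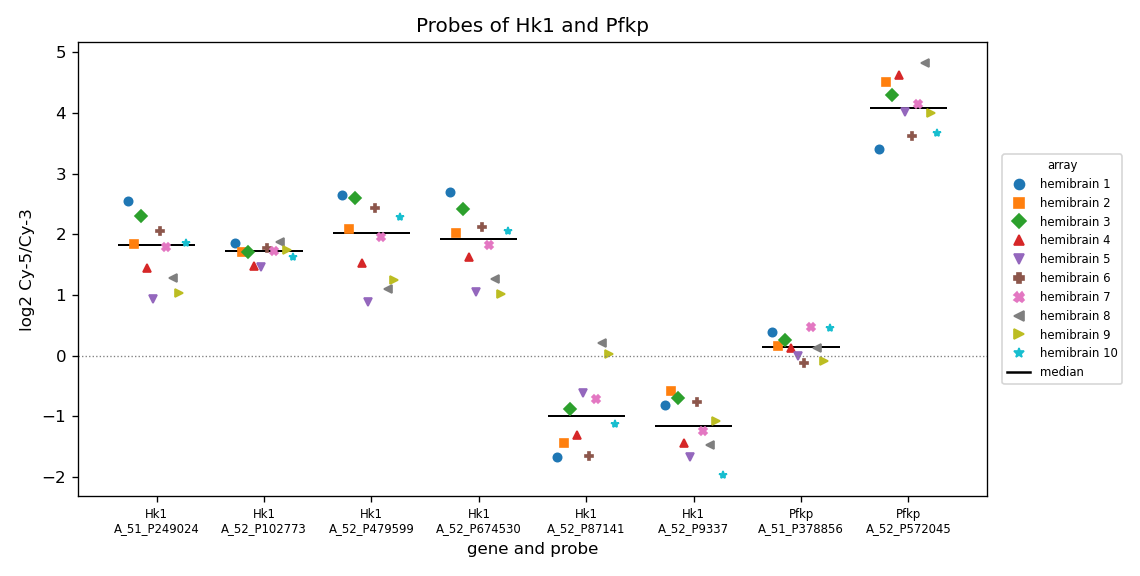
Log2 Cy-5/Cy-3 of each probe of Hk1 and Pfkp, with a symbol for each array and a line at the median. Of the 6 probes of Hk1, 4 have medians between 1.72 and 2.02 and 2 lie below 0 at the median, and the probes of Pfkp have medians of 0.14 and 4.08.

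Phosphofructokinase works as a tetramer of muscle-type (Pfkm), liver-type (Pfkl) and platelet-type (Pfkp) subunits, and the muscle-type subunit had the highest ratio by brightest probes. Pfkm (A_51_P117995) ranged from 1.38 to 2.48 over 7 arrays, with a median of 2.17 (limma, adjusted p = 2.55e-07). Its spots on hemibrain 7, hemibrain 8 and hemibrain 9 carried outlier flags and gave no value. Pfkl (A_51_P310896) ranged from -1.52 to 0.00 over 10 arrays with a median of -0.62, a ratio of 1.54-fold in favor of Cy-3 (limma, adjusted p = 0.000556). Hemibrain 5 was the lowest array for both subunits and hemibrain 1 the highest.

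Pfkp gave different answers by probe. Its brightest probe (A_51_P378856) stayed near 0, from -0.12 to 0.47 with a median of 0.14, and did not pass the test (limma, adjusted p = 0.0537). The other probe of the same transcript (A_52_P572045) ranged from 3.41 to 4.82 with a median of 4.08 (limma, adjusted p = 2.13e-11). On the same array the brightest probe minus the other gave -4.70 to -3.02, and over the arrays their Pearson's r was -0.15 (n = 10). Both were well above background in both dyes on all 10 arrays. The place of Pfkp among the subunits therefore depends on the probe.

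By brightest probes, the log2 ratio of Pfkm exceeded that of Pfkl by 2.66 ± 0.16 (SD, n = 7), or 6.31-fold. It did so on 7 of 7 arrays (exact sign-flip permutation test, two-sided p = 0.0156, the smallest that 7 arrays can give). The log2 ratio of Pfkm exceeded that of Pfkp by 1.89 ± 0.32 (SD, n = 7), again on 7 of 7 arrays with the exact p of 0.0156. That difference was lost when all probes of a gene were averaged, at -0.03 with an exact permutation p of 0.828. For Pfkp the log2 ratio exceeded that of Pfkl by 0.85 ± 0.37 (SD, n = 10), or 1.80-fold. It did so on 10 of 10 arrays (exact sign-flip permutation test, two-sided p = 0.00195, the smallest that 10 arrays can give). Averaged over all probes the difference between Pfkp and Pfkl was 2.82. The order Pfkm, Pfkp, Pfkl thus held on each array with a value by brightest probes, while the step between Pfkm and Pfkp did not hold over all probes.

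Aldoa, the aldolase of muscle and most tissues, was higher in Cy-5. Its brightest probe (A_52_P98387) ranged from 1.45 to 2.49 with a median of 1.92 over 10 arrays, or 3.79-fold (limma, adjusted p = 1.58e-09). The size depended on the processing, since the mean of 1.90 from processed signals became 1.06 from median signals, which have neither the background nor the dye correction of the processed ones. The second probe (A_51_P216905) ranged from 1.28 to 2.29 with a median of 1.56. Both probes were highest on hemibrain 8, the array with the lowest share of probes well above background in each dye. Their Cy-3 signals there, 210000 for the brightest probe and 203000 for the second, were the lowest of the arrays. Their Cy-5 signals there, 1230000 and 1040000, lay within the range of the other arrays. Without hemibrain 8 the brightest probe spanned 0.72 in place of 1.04. Aldoc (A_51_P220681) ranged from 3.77 to 4.88 with a median of 4.36. The difference between Aldoc and Aldoa had a mean of 2.46 ± 0.42 (SD, n = 10), or 5.49-fold, and was above 0 on 10 of 10 arrays (exact sign-flip permutation test, two-sided p = 0.00195). Both isoforms were thus higher in hemibrain RNA, and the ratio of Aldoc was the larger on every array, while their difference was 3.30 from median signals.

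Enolase joined the neuronal Eno2 to the widespread Eno1, which lay on opposite sides of 0. The brightest probe of Eno2 (A_51_P130028) ranged from 1.84 to 2.85 with a median of 2.29 over 9 arrays, or 4.88-fold (limma, adjusted p = 2.39e-09). Its second probe (A_52_P748882) stayed within -0.17 and 0.14 of it on the same array. Eno1, with a single probe (A_52_P349939), ranged from -3.01 to -0.59 with a median of -1.82 over 10 arrays (limma, adjusted p = 1.81e-05). All arrays were below 0, from hemibrain 1 as the highest at -0.59 to hemibrain 8 as the lowest at -3.01, with hemibrain 5 beside it. The difference between Eno2 and Eno1 had a mean of 4.19 ± 0.53 (SD, n = 9), or 18.2-fold, and was above 0 on 9 of 9 arrays (exact sign-flip permutation test, two-sided p = 0.00391).

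Lactate dehydrogenase showed the largest difference of the 7 pairs compared. Ldhb (A_51_P409173) ranged from 4.07 to 4.78 with a median of 4.48 over 9 arrays, or 22.3-fold (limma, adjusted p = 8.45e-13). The brightest probe of Ldha (A_51_P364140) ranged from -2.01 to -1.10 with a median of -1.30 over 10 arrays (limma, adjusted p = 2.01e-08). Its mean of -1.34 became -1.74 from median signals. Its second probe (A_51_P364146) lay between -2.07 and -1.16, but the 2 probes did not move together over the arrays (Pearson's r = -0.27, n = 10). The log2 ratio of Ldhb exceeded that of Ldha by 5.82 ± 0.35 (SD, n = 9), or 56.6-fold between the ratios to the Cy-3 RNA. It did so on 9 of 9 arrays (exact sign-flip permutation test, two-sided p = 0.00391). The lowest array was at 5.23 and the highest at 6.28, so that no array came near 0.

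**Figure D3:**
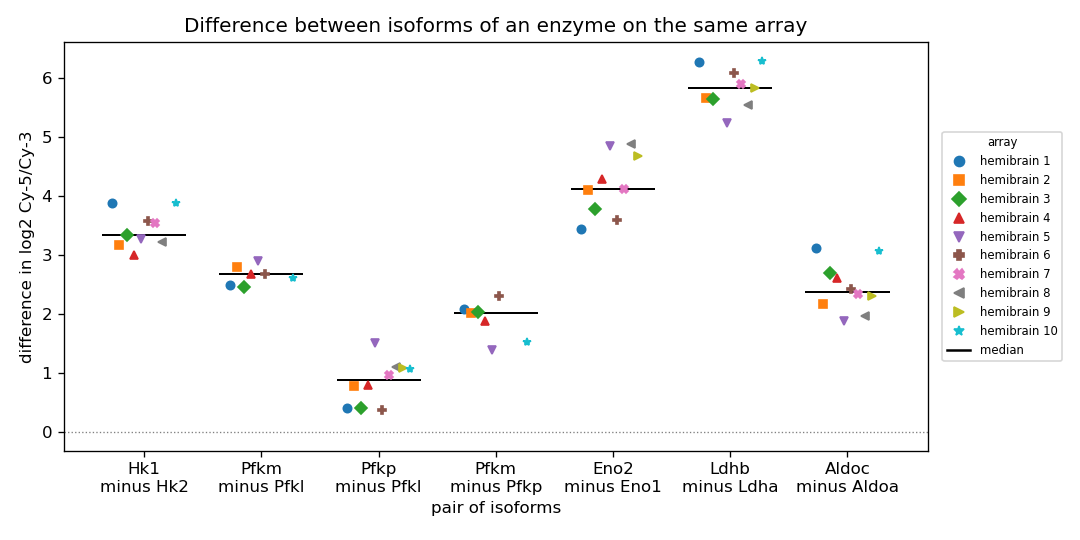
Difference in log2 Cy-5/Cy-3 between 2 isoforms on the same array for 7 pairs, with a symbol for each array and a line at the median. All differences lie above 0, from 0.38 for Pfkp minus Pfkl on hemibrain 6 to 6.28 for Ldhb minus Ldha on hemibrain 10.

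The enolase and lactate dehydrogenase genes gave the largest differences among pairs of members, and their promoters are shown for that reason. The windows are RefSeq promoters of 300 bases (build GRCm38.p6), and where a gene has several windows the most upstream is shown. Entries were found for 10 of 10 members. Both strands were searched for ACGTG and GCGTG, core letters bound by hypoxia-inducible and related factors, and matches are in capitals. A window with CACGTG counts once on each strand. Of 32851 such windows in the table, 43.8% held ACGTG or GCGTG, 19.6% held ACGTG and 32.4% held GCGTG. The number of matches in a window was not set against that of all windows. The windows lie at chr4:150236458-150236757 (plus strand) for Eno1, chr6:124769624-124769923 (minus strand) for Eno2, chr7:46845554-46845853 (plus strand) for Ldha and chr6:142507908-142508207 (minus strand) for Ldhb.
Eno1: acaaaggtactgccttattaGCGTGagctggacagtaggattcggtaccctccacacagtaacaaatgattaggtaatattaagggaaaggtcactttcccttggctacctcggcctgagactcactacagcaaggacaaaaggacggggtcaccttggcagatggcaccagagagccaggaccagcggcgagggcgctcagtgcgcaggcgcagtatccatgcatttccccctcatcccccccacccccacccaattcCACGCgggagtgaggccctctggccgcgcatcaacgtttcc
Eno2: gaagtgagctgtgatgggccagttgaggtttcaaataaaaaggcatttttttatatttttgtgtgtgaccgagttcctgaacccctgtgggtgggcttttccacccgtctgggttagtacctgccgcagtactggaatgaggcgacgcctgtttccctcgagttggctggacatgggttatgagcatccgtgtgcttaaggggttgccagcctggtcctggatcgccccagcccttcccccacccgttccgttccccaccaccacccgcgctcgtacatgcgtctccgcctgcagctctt
Ldha: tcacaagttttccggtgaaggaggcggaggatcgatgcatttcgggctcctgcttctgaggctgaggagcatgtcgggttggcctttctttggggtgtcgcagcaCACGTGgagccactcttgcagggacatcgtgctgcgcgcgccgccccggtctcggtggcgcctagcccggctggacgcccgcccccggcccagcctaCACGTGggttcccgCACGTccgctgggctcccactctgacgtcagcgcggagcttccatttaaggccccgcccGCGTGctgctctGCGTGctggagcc
Ldhb: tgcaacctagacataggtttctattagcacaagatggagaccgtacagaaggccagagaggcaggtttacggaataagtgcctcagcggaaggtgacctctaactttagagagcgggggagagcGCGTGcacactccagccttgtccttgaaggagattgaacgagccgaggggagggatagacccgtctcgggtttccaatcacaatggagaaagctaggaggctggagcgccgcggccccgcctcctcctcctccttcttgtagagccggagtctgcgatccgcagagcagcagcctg

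The Ldha window shown held 5 matches to ACGTG and 2 to GCGTG, but the other of its 2 windows held 0 and 2, so that the ACGTG matches lie in 1 of them. The single window of Ldhb held 0 and 1 and that of Eno2 0 and 0. Each of the 3 windows of Eno1 held 0 and 2. In the most upstream windows of the other genes higher in Cy-5, Pfkm held 3 and 0, and Hk1 and Aldoa each held 0 and 0. Of those lower, Hk2 held 2 and 0 and Pfkl 0 and 1, and Pfkp, not called, held 0 and 4. The other window of Hk1 held 2 and 3, and each of the other windows of Aldoa 1 and 0. Those of Pfkm held 1 and 1, 0 and 1, and 0 and 0. Whether the counts follow the direction of the ratio was not tested. A match describes letters in the window and was not tested as a binding site.

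Several members moved together over the arrays. Eno1 and Eno2 had a Pearson's r of 0.97 (n = 9), Pfkl and Eno2 of 0.93 (n = 9), Pfkl and Eno1 of 0.89 (n = 10), and Pfkl and Pfkm of 0.98 (n = 7). These genes were high on hemibrain 1 and hemibrain 3 and low on hemibrain 5, and those with a value were also low on hemibrain 8 and hemibrain 9. The pairs named are among the highest, and over all pairs of members r ran from -0.61 to 0.98. The pattern was not particular to the members. Gapdh was at 1.31 and 0.5 on hemibrain 1 and hemibrain 3, and at -0.91, -0.42 and -0.71 on hemibrain 5, hemibrain 8 and hemibrain 9. Another 3 probes of Hk1, those of NM_010438 with medians near that of the brightest, had an r of 0.92 to 0.96 with Eno1 (n = 10), whereas the brightest had 0.26, or 0.62 without hemibrain 8. For Ldha the answer depends on the probe, and for Aldoa the sign of the second probe depends on hemibrain 8. The brightest probe of Aldoa had an r of -0.55 with Eno1 (n = 10), or -0.33 without hemibrain 8, and the second -0.28, or 0.14 without it. For Ldha the r was -0.59 for the brightest probe and 0.70 for the second (n = 10). The genes share arrays, labeling and the Cy-3 RNA, and a slide held at most 4 arrays. A correlation within slides was not tested. The spread of Eno1 was wide for a bright probe. Its range of 2.42 exceeded that of 99.0% of the 17612 probes well above background in both dyes on all arrays, whose median range was 0.84, and without hemibrain 8 it was still 2.41. Of the 4 Hk1 probes in this set, the range of the brightest exceeded that of 5.12% of the probes and the others that of 92.7% to 95.1%.

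**Figure D4:**
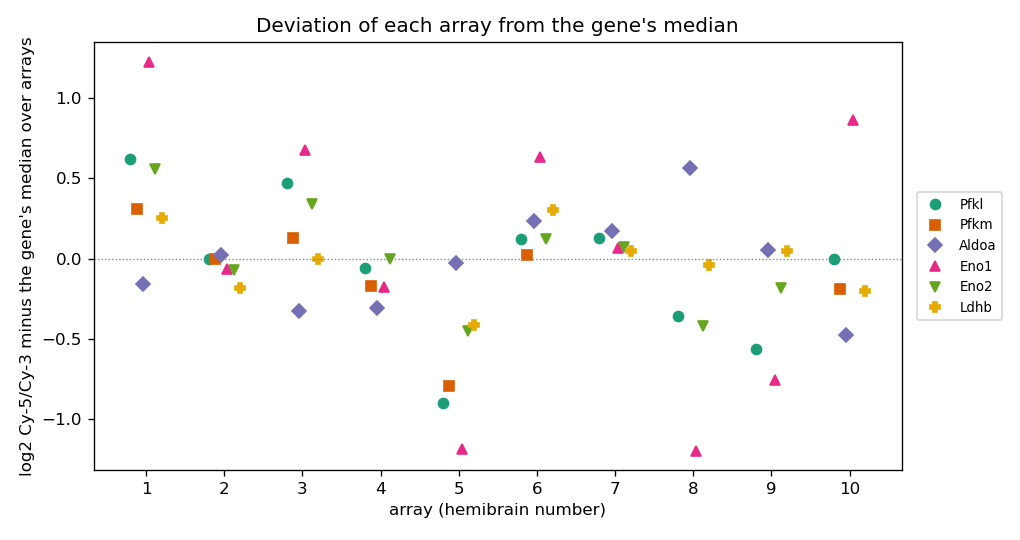
Log2 Cy-5/Cy-3 on each array minus the gene's median over the arrays, for Pfkl, Pfkm, Aldoa, Eno1, Eno2 and Ldhb. Pfkl, Eno1 and Eno2 lie above their medians on hemibrain 1 and hemibrain 3 and below them on hemibrain 5, hemibrain 8 and hemibrain 9.

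For each member, the gene with the most similar pattern over the arrays was sought among genes well above background in both dyes on all 10 arrays. For Eno1 this was Ly6e (Pearson's r = 0.993, n = 10), for Pfkl it was Plxnb2 (0.985, n = 10), and for Hk1 it was Smap2 (0.952, n = 10). Aldoa was most like Rps2 (0.956, n = 10), Pfkp like Exd2 (0.908, n = 10) and Ldha like Mpeg1 (0.903, n = 10). With values on 9 arrays, Hk2 was most like Mpped2 (0.986), Eno2 like Cnnm3 (0.986) and Ldhb like Eef1g (0.979), and Pfkm with 7 arrays was most like Vars (0.997). Each is the highest of 10532 or 10533 correlations, which makes high values ordinary.

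Slides were compared as a technical factor, with the 4 arrays of a slide against the 4 of another. Of the members' brightest probes, 0 of 9 tested differed at an adjusted p under 0.05 in limma, and 1, Aldoa, had an unadjusted p under 0.05. Over all probes, 29 of 40858 (0.071%) were called and 4021 had an unadjusted p under 0.05. When an array was left out, with fewer samples, between 0 and 8 were called. The first slide gave Aldoa values of 1.60 to 1.95 and the other slide values of 1.98 to 2.49, a mean difference of 0.42 with an adjusted p of 0.434 in limma. Its second probe gave 1.28 to 1.43 and 1.69 to 2.29, a mean difference of 0.58 with an adjusted p of 0.23 in limma. Over all probes of the members, 0 of 18 tested were called and 2 had an unadjusted p under 0.05. Pfkm had too few values to be tested. The isoform differences were above 0 within each slide of 4 arrays. Means on the first and second slide were 3.19 and 3.44 for Hk1 minus Hk2, 4.25 and 4.32 for Eno2 minus Eno1 and 5.51 and 5.83 for Ldhb minus Ldha. They were 2.34 and 2.25 for Aldoc minus Aldoa, 0.87 and 0.88 for Pfkp minus Pfkl and 2.71 and 2.68 for Pfkm minus Pfkl, where the second slide had 1 array with a value. Pfkm minus Pfkp gave 1.83 and 2.31, again with 1 array on the second slide, the pair that changed most between slides. Slide, labeling and animals cannot be told apart here.

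The other isoforms of these steps were drawn from a list of 17 glycolysis genes, of which 6 were higher in Cy-5, 5 lower and 6 not called. Over the 16 of them with signal well above background in either dye on any array, the median was -0.04. Hkdc1, a hexokinase-like gene, had the highest median of this list at 5.62, followed by Aldoc at 4.36 and Bpgm at 2.63. At the other end stood Eno3, the muscle enolase, at -2.65, Hk3 at -1.77 and Pgk1 at -1.17. Eno4 had a median of 1.39. Ldhc, the testis isoform of lactate dehydrogenase, was not well above background in either dye on any array, and no fold is given.

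Regulators and neighbors of the pathway were taken from further lists. Of 5 genes that set the level of fructose 2,6-bisphosphate, the activator of phosphofructokinase, 3 were higher and 2 lower, with a median of 1.17. By brightest probe, Pfkfb2 was highest at 2.26, followed by Pfkfb4 at 1.74 and Pfkfb3 at 1.17, whereas Tigar was at -1.27 and Pfkfb1 at -2.56. Of the other probes of Pfkfb2, that at 2.49 was called higher, and those at 0.41 and -0.34 were not called. The other probes of Pfkfb3, at -0.62 and -0.16, were not called either. For Tigar, a probe at -0.59 was called lower, and another was called higher with Cy-3 well above background on 0 arrays. Of 8 glucose and lactate transporters 3 were higher, 3 lower and 2 not called, with a median of 0.29. Slc16a7, the monocarboxylate transporter of neurons, was not well above background in Cy-3 on any array and was at least 21.6-fold higher in Cy-5 (limma, adjusted p = 5.71e-11), a bound that is open to dye bias. The neuronal glucose transporter Slc2a3 was at 2.13 and Slc2a4 at 1.32, against -3.44 for Slc16a3, the lactate exporter of glycolytic cells, -1.14 for Slc16a1 and -0.51 for Slc2a1, the glucose transporter of the blood-brain barrier.

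Of the 8 measured genes of pyruvate entry into mitochondria, 3 were higher, 0 lower and 5 not called by brightest probe in limma, with a median of 0.18. Pdk4 was highest at 1.61, followed by the carrier subunits Mpc2 at 0.97 and Mpc1 at 0.76, and Dlat (-0.62), Pdk3 (-0.36) and Pdk1 (-0.27) were lowest. These calls depend on the probe. The other probes of Pdk1 at -2.87, Pdha1 at -1.75 and Pdk3 at -1.06 were called lower. Those of Dlat at 2.52 and Mpc1 at 0.87 were called higher, and that of Pdhb at 0.22 was not called. Of 6 measured genes of gluconeogenesis 1 was higher, 3 lower and 2 not called, with a median of -0.13. Pcx, which refills the citric acid cycle in astrocytes, was highest at 1.06, followed by G6pc at 0.53 and G6pc3 at 0.51, and Pck2 (-2.28) and Fbp1 (-0.77) were low. Fbp2 was called lower too, but its Cy-5 signal was well above background on only 1 array, and no value is given. Pdk2 and Pck1 were not analysed here.

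**Figure D5:**
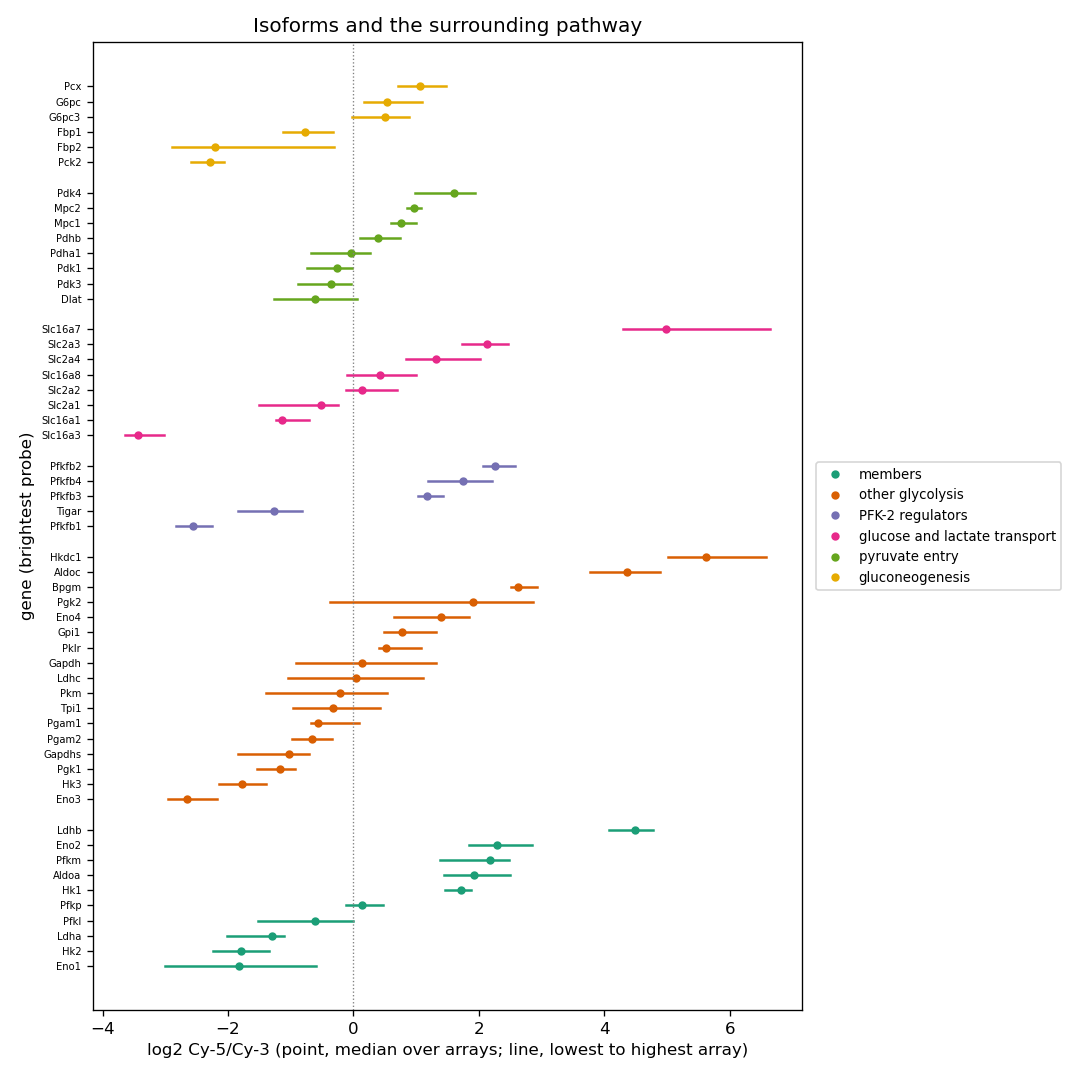
Median (point) and lowest to highest array (line) of log2 Cy-5/Cy-3 for the brightest probe of each isoform and of the genes of 5 surrounding lists. Medians run from -3.44 for Slc16a3 to 5.62 for Hkdc1, and by these probes each list except pyruvate entry holds genes called on both sides of 0. Other probes of Pdk1, Pdha1 and Pdk3 in pyruvate entry, not drawn, were called lower. Points of Ldhc, Fbp2, Slc16a7 and Pgk2 rest on a dye near background on most arrays.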

How the data were processed

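Each array paired hemibrain RNA of 1 mouse (Cy-5) with a second RNA (Cy-3). The slides were scanned by the authors, and the deposited signals are intensities from the Feature Extraction software (version 10.10.1.1 per the file headers), corrected for background and dye. The deposited log10 ratio of each spot is that of Cy-5 over Cy-3. The deposited table of the authors holds log2 ratios, of which 99.7% to 99.9% lay within 0.001 of the ratio of processed signals on the same array.

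Processed signals gave log2 Cy-5/Cy-3, which was corrected by loess on each array (span 0.3), control spots were left out, spots with an outlier flag were set aside, and spots of a probe were averaged. A probe counted as well above background where a share of 0.5 or more of its spots had the flag. Probes were named by accession through RefSeq transcripts of GRCm38.p6, used for names, and 27198 of 41174 probes (66.1%) matched a single gene. A gene was taken by its brightest probe, that of highest mean log2 signal over both dyes. Near-identical gene copies exist for several members, and since probe sequences were not used here, cross-hybridization was not tested.

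Of 45018 spots per array, 43379 were not controls, and none of these was saturated. Probes well above background made up 49.8% to 76.9% in Cy-5 and 61.9% to 79.1% in Cy-3. Precision is limited by how many arrays there are and by signal over background. Pearson correlations between arrays ranged from 0.866 to 0.967 across probes, which are not independent replicates.

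Ratios were tested against 0 with limma 3.58.1 in R 4.3.3 over 41170 probes with Benjamini-Hochberg adjustment, and slides over 40858 probes. Isoform pairs (7 in all) were compared with an exact sign-flip permutation test over arrays, with p-values not adjusted. Where a probe was not well above background in Cy-3 on any array, the fold is a bound, from the mean Cy-5 value against the mean of the higher of its own Cy-3 value and the lowest value well above background, per array, after loess and Aquantile scaling. Tables were made with Python 3.11.15, pandas 2.3.3 and numpy 2.4.6.

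The genes named are the 10 members with all probes, 5 pathway lists, of which the isoforms of the members' steps and the highest and lowest 3 genes are given, the gene most like each member, and 11 lists of cell type markers. Of the listed genes, 5 were not analysed here, and 2 were left out of counts and values and are not reported here. Members and lists were chosen with earlier results of these data known. The alternatives were no loess, median centring, normexp with an offset of 50, background subtraction floored at 0.5 plus that offset, the authors' table, all probes of a gene, only probes well above background, slide as a random block, a fold of at least 2, values within a slide, and arrays left out. Keeping spots with an outlier flag, median signals with no background step, and all probes with signal in both dyes were added after the data were examined. Normexp and floored subtraction were run on median signals.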

Additional observations from a re-analysis of the deposited data

Results flagged for a closer look

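A value was singled out where its gap to the nearest other array was large for the range of the arrays, which chance gives in about 1 in 20 groups. Of 47 measures tested, 6 were singled out. Of the members, this held for Ldha on hemibrain 10, where the brightest probe (A_51_P364140) had a log2 Cy-5/Cy-3 of -2.01 against -1.54 to -1.10 on the other 9 arrays. The second probe of Ldha was at -1.44 on that array, inside its range on the others. By its file hemibrain 10 was alone on its slide, but its label gives another array position than the file.

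The array hemibrain 8 stood apart in signal. Its Cy-5 share of probes well above background was 49.8%, where the other 9 arrays had 68.2% to 76.9%, and its Cy-3 share was 61.9%, where the others had 70.3% to 79.1%. The median ratio of the neuronal markers was highest there, at 7.81 against 6.14 to 6.97, and Snap25 and Nefm were not well above background in Cy-3 there. On hemibrain 1, the list median of testis markers was lowest (-1.54 against -0.98 to -0.56). The list median of liver markers was lowest there too (-1.21 against -0.17 to 0.36), but that value is of Alb, which was well above background in neither dye on any array, and nothing is read from it. The part of these arrays in the spread of the members was not tested.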

How the results depend on the processing

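The 10 members kept the sign of their mean ratio under each alternative run, and 81 of 84 values of the isoform differences kept their direction and their side of the threshold or, within a slide, stayed inside the spread over arrays. Sizes still changed: with all probes that had signal in both dyes Pfkp minus Pfkl went from 0.85 to 2.82 and Hk1 minus Hk2 from 3.43 to 2.96, and Aldoc minus Aldoa went from 2.46 to 3.27 with normexp, 3.32 with floored subtraction and 3.30 from median signals with no background step. Averaging all probes of a gene turned Pfkm minus Pfkp from 1.89 to -0.03, where the probes of Pfkp disagree. Within the second slide that difference was 2.31, from the 1 array with a value. For single members, 10 of 100 values moved by more than the spread over arrays. With all probes that had signal in both dyes the mean of Hk1 went from 1.69 to 1.18 and that of Pfkp from 0.17 to 2.14. With a probe of Hk1 at background in Cy-5 also kept, Hk1 went to 0.83 and Hk1 minus Hk2 to 2.59. With normexp, floored subtraction and no background step, all on median signals, Aldoa went from 1.90 to 1.09, 1.02 and 1.06, and Ldha from -1.34 to -1.76, -1.78 and -1.74. Median signals also lack the dye correction of the processed signals, and which step moved the values was not tested. With slide as a random block, 12654 probes were called higher and 11497 lower.

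The counts depended more on the processing. With normexp 7805 probes were called higher and 6760 lower, against 12665 and 11505, and with median signals and no background step 9463 and 7997. The balance turned to more lower than higher with no loess (11234 and 13024), median centring (11219 and 13039) and the authors' table (11237 and 13022). With only probes well above background in Cy-5, fewer probes were tested, 8732 were called higher and 5121 lower, and the filter itself removes probes low in Cy-5. The slide comparison gave 94 probes under that filter against 29, and between 0 and 8 when an array was left out, with fewer samples, where limma gave 3159 to 4984 probes at an unadjusted p under 0.05. Signal over background limits the dim probes, such as those of Hk1, Ldhc, Fbp2 and Slc16a7.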

Other observations

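Markers of other cell types completed the description of the channels. By brightest probe, 4 of 5 microglial genes were higher in Cy-5, with a list median over the arrays of 1.16 to 1.67, and 4 of 5 endothelial genes, among them Tek and Cdh5, whose Cy-3 signal was well above background on only 1 and 4 arrays. Of 3 measured choroid plexus genes 2 were higher, as were 2 of 3 measured erythroid genes. Of 5 skeletal muscle genes 1 was higher and 3 were lower, with a list median over the arrays of -1.33 to -0.74, and of 4 testis genes 2 were lower. None of 3 measured liver genes passed background in Cy-5 on any array.

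Probes of a gene also disagreed outside the members, in genes picked after their values were seen. For Dlat, a subunit of pyruvate dehydrogenase, the probes had medians of -0.62 and 2.52, for Pdk1 of -0.27 and -2.87, and for Pdha1 of -0.04 and -1.75. All of these probes were well above background in both dyes on all 10 arrays.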
